A study of Homo sapiens with 6 samples.

Results

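The genes described are those that encode histone H3.3 and the chaperones that carry and deposit it. They were chosen by identifier for H3-3A (ENSG00000163041) and H3-3B (ENSG00000132475), and by name for ATRX, DAXX, HIRA, UBN1, UBN2, CABIN1, ASF1A and ASF1B. This gave 10 of the 35639 genes in the table, and all 10 passed the filter on low values that left 16436 genes for testing. Histone H3.3 is the H3 variant that is placed in chromatin throughout the cell cycle, whereas canonical H3 is made and deposited mainly during DNA replication. H3-3A and H3-3B encode the same protein from different genes. The HIRA complex, in which HIRA works with ubinuclein (UBN1 or UBN2) and CABIN1, deposits H3.3 at active genes. DAXX with the remodeller ATRX deposits it at telomeres and other heterochromatin, and ASF1A and ASF1B hand H3 and H4 to downstream chaperones. Giant cell tumour of bone typically carries the G34W substitution in the protein from H3-3A, which makes osteoblast-lineage cells the setting in which this mutant is studied.

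RNA-seq libraries were made from hFOB 1.19, osteoblast-lineage cells of fetal human origin that divide at 34 °C under a heat-sensitive T antigen of SV40. The cells were kept at this temperature and were collected 15 days after they received the vectors. The cells carried a lentiviral empty vector (EV), an HA-tagged wild-type H3.3 (H3.3-WT) or an HA-tagged H3.3-G34W, with 2 libraries per line. All vectors also express dTomato, by which transduced cells were sorted as pools, and the H3.3 insert is a Drosophila cDNA. Values of the human H3-3A and H3-3B therefore stand for the endogenous genes as far as fly reads were not assigned to human transcripts, which was not tested. The comparisons ask whether added H3.3 or its G34W form goes with a different supply of endogenous H3.3 transcripts or of chaperone transcripts. The unit is the authors' normalised estimated count, which is not divided by gene length, so values are compared between libraries and not between genes. Depth is unknown, because reads could not be recovered from these values, and error is judged from the spread between libraries. The libraries were collected in duplicate. By the methods, replicates are separate wells of an experiment and several separate infections supplied the hFOB cells, but the infection behind each library is not assigned, so p-values measure the spread between these libraries, which need not be that between infections.

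Some libraries stood apart or went against their labels. Library titles set the groups, and the genotype field names the G34W and WT libraries the other way round, so every direction between G34W and WT, and which of these lines each comparison with EV concerns, rests on the titles. EV replicate 1 was left out of all comparisons. It listed 7 of the 10 genes at 0, together with 28688 of all 35639 genes. EV thus had 1 library in each fit and was assumed to vary as the other lines do. The osteoblast label was checked with marker genes. COL1A2 had 91016 in G34W replicate 1 and 90034 to 138799 in the other 4 libraries, and SPARC had 72998 to 85409 in all 5. COL1A1 lay between 24757 and 43115, RUNX2 between 236 and 573 and SPP1 between 171 and 649, whereas SP7 (at most 6.03) and IBSP (at most 2.5) were near 0. ALPL had 1216 in G34W replicate 1 and at most 428 elsewhere. BGLAP, a late marker, had 4.08 and 27.4 in G34W, 44.9 and 39.3 in WT and 5.55 in EV replicate 2.

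G34W replicate 1 also held transcripts of pluripotent cells. The 12 pluripotency genes summed to 64765 in that library and to 702 in G34W replicate 2, 846 and 824 in WT, and 933 in the EV library. Values here are of the 5 libraries compared, except where EV replicate 1 is named. Among these, G34W replicate 1 was the highest library for 11 of the 12 genes, as it was for the sum. The most abundant was POU5F1, a core pluripotency factor, at 19441 against at most 75.4 in the others compared. DNMT3L was listed at 0 in G34W replicate 1 and UTF1 had 9.21 there. EV replicate 1, left out, had 2135 for POU5F1, 109 for UTF1 and 0 for SOX2. The 10 myeloid and osteoclast genes summed to 453.5 in G34W replicate 1 and at most 343 elsewhere. The most abundant in G34W replicate 1 was ACP5 at 144, and TYROBP and OCSTAMP were listed at 0 in all 5 libraries. Of 6 neural genes, 3 were highest in G34W replicate 1. Their sum was 5993 there against 7301 in WT replicate 2, mostly from TUBB3 at 5682 and 7295. Of the 6, 4 had both G34W libraries above both WT libraries, against 11.5% of all genes tested. Of these 4, 3 (PAX6, DCX and SOX1) did not reach 10 in at least 2 libraries and were not tested. The 11.5% therefore does not cover genes like these 3. TUBB3 overlapped. DCX had 196 in G34W replicate 1 and at most 6.83 elsewhere, PAX6 had 37.2 and at most 5.96, and SOX1 was at most 2.27. MAP2 had 77.2 and 51.1 in G34W, 5.28 and 2.35 in WT and 116 in EV replicate 2 (unadjusted p of 0.0013 and adjusted p of 0.9997 between G34W and WT from limma). Over 12328 genes above 50 in each of the 5 libraries, the median log2 offset from the mean over libraries was -0.17 in G34W replicate 1, 0.07 in G34W replicate 2, -0.04 and 0.10 in WT, and 0.01 in EV replicate 2. Log2 fold changes of the 10 genes and of the lists between G34W and WT are therefore given with and without G34W replicate 1. The part of the pluripotency transcripts in these results was not tested.

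H3-3A was the gene of the set with the widest difference between libraries. The gene spans 226061831 to 226072019 of chromosome 1 (GRCh38.p14). Its value was 11161 and 5570.4 in the G34W libraries (8366 ± 3953, SD, n = 2), 3793 and 4195 in the WT libraries (3994 ± 284, SD, n = 2) and 4237 in EV replicate 2. Both G34W libraries lay above the other 3, which were close together, and G34W replicate 1 had the highest value by far. Relative to the WT mean, G34W replicate 1 was 2.79-fold and G34W replicate 2 was 1.39-fold. The log2 fold change of value + 1 between G34W and WT was 0.98 (standard error 0.33, 95% interval 0.24 to 1.73), with an unadjusted p of 0.0154 and an adjusted p of 0.9997 from limma. It therefore did not pass the threshold of an adjusted p of 0.05. Without G34W replicate 1 the difference was 0.48 (standard error 0.29, unadjusted p of 0.128 and adjusted p of 0.9999 from limma). Without G34W replicate 2 it was 1.48, with an adjusted p of 0.0661 from limma, so its size depended on the G34W library used. More RNA per cell and a larger share of cells with that RNA cannot be told apart in bulk libraries.

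H3-3B, on chromosome 17 from 75776434 to 75779779, did not share this pattern. It had 22029.8 and 26483 in G34W (24256 ± 3149, SD, n = 2), 25288 and 26980.3 in WT (26134 ± 1197, SD, n = 2) and 23982 in EV replicate 2. The groups overlapped, G34W replicate 1 was the lowest library, and the highest library was 1.22 times the lowest, against 2.94 times for H3-3A. After rescaling to a median ratio of 1, G34W replicate 1 was -0.05 from the WT mean (log2) and EV replicate 2 -0.10. Which library was lowest thus depended on the scaling. The log2 fold change between G34W and WT was -0.11 (95% interval -0.70 to 0.48), and 0.02 without G34W replicate 1. The sum of both genes was 33191 and 32054 in G34W, 29081 and 31176 in WT and 28219 in EV replicate 2, so it spanned a narrower range than H3-3A alone.

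The promoters of the H3.3 genes are shown because the pair encodes the same protein while their values moved differently across libraries. RefSeq windows of GRCh38.p14 hold 250 bases before and 50 after a transcript start, and 8 of the 10 genes had a window. H3-3A has 4 listed starts, of which the most downstream is shown (chr1:226062466-226062765, plus strand), and H3-3B has 1 (chr17:75779730-75780029, minus strand). Each is printed 5′ to 3′ along the gene, with capitals for matches on either strand. The motifs searched were the CCAAT box, the TATA box written as TATAAA, the GC box core GGGCGG and the cell cycle element core TTTGAA.
H3-3A: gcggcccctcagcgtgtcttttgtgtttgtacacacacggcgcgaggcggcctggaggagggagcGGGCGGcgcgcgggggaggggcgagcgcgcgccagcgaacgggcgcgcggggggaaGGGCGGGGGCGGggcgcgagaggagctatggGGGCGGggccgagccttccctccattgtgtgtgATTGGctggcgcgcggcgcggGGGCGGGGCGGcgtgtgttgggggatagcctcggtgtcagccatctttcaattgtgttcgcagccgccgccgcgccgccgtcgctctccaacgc
H3-3B: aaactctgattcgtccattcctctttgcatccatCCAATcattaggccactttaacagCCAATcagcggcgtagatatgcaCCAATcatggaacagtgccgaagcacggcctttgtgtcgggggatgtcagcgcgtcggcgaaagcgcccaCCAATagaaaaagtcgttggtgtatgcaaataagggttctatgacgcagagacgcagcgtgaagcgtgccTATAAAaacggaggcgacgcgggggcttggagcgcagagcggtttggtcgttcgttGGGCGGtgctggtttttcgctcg
The H3-3A window had 74% G and C and held 6 matches to GGGCGG and 1 to CCAAT, with none to TATAAA. Some of the GGGCGG matches touch or overlap. The H3-3B window had 54% G and C and held 4 matches to CCAAT, 1 to GGGCGG and 1 to TATAAA, which begins 29 bases before the start. The other 3 H3-3A windows had 80%, 79.7% and 52.3% G and C and 4, 2 and 1 matches to GGGCGG, so the contrast with H3-3B in these letters depends on the start shown. Of 35116 windows of this length, 34.6% held CCAAT, 11.5% held TATAAA, 44.95% held GGGCGG and 15.2% held TTTGAA. The matches describe the letters in these windows only.

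The balance between the H3.3 genes was followed as the percent that H3-3B makes up of the sum of both. It was 66.4% and 82.6% in the G34W libraries, 86.96% and 86.5% in the WT libraries and 85.0% in EV replicate 2. Both G34W libraries were below the other 3, with a wide gap between G34W replicate 1 and the rest. The mean was 74.5% ± 11.5 (SD, n = 2) in G34W and 86.8% ± 0.292 (SD, n = 2) in WT, a difference of -12.3 percentage points, or -4.13 with G34W replicate 2 alone. No test of this share was run. With 2 libraries in each line the smallest two-sided p of an exact permutation test is 0.33. The share is of unequal transcripts and is meaningful between libraries only.

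**Figure D1:**
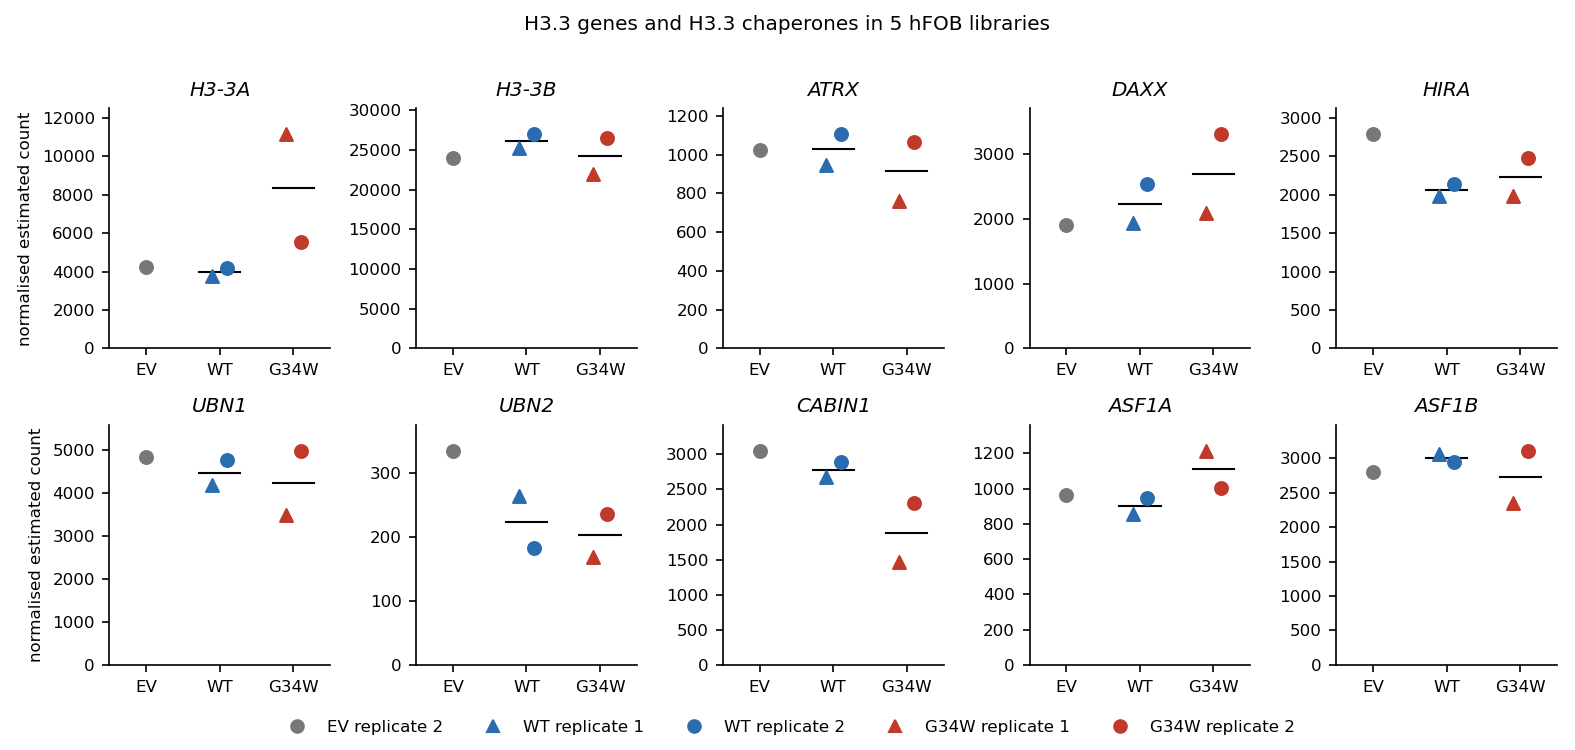
Normalised estimated counts (vertical axes from 0, scaled per gene) of the 10 genes in EV replicate 2, WT and G34W. Each point is a library, triangles are replicate 1, circles are replicate 2, and bars are the means of 2 libraries; H3-3A is highest in G34W replicate 1 at 11161 and CABIN1 is lowest there at 1460.3.

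Processed copies of H3.3 genes share sequence with them, so estimated counts can be split between them. The file has 47 rows named as H3 pseudogenes, of which 6 carry an H3F3A-type older symbol in RefSeq and 2 an H3F3B-type one. Only 2 of the 47 were above 10 in each of the 5 libraries. H3P6, formerly H3F3AP4, had 2472 and 1567 in G34W, 1419 and 1471 in WT and 1222 in EV replicate 2. It was thus highest in the library in which H3-3A was highest, and the value of H3-3A is uncertain to that extent. H3P4, a pseudogene of a canonical H3 gene, had 66.5 and 157 in G34W, 99.4 and 109 in WT and 73.1 in EV replicate 2. Among other H3 variants, H3-5, a retrocopy-derived gene, stayed between 2.78 and 13.8, and the testis gene H3-4 was listed at 0 in all 5 libraries.

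Genes most like the members were found by the root mean square distance of centred log2 values over the 5 libraries, among 12320 candidates with a mean above 100. For H3-3A they were SLC19A2, a thiamine transporter (distance 0.073), FAM221A (0.095) and the ubiquitin-conjugating enzyme UBE2D1 (0.101). SLC19A2 had 1081 in G34W replicate 1, 534 in G34W replicate 2 and 399 to 451 in the other 3. Its likeness to H3-3A follows from how it was chosen and is not a separate result. For H3-3B they were PTPMT1 (0.014), BLCAP (0.015) and TMEM184C (0.019), and for ASF1B they were GSR (0.013), RRP7A (0.015) and EVI5 (0.016). These distances describe 5 libraries, in which many genes of flat level lie close together.

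In the HIRA complex, CABIN1, a subunit of the complex, had lower values in G34W. It was 1460.3 and 2303 in G34W (1882 ± 596, SD, n = 2), 2671 and 2892 in WT (2782 ± 156, SD, n = 2) and 3053 in EV replicate 2. Both G34W libraries lay below the other 3, and G34W replicate 1 was the lowest. The log2 fold change against WT was -0.60 (standard error 0.28, 95% interval -1.24 to 0.04), with an unadjusted p of 0.0645 and an adjusted p of 0.9997 from limma. It was -0.27 without G34W replicate 1. With each library rescaled to a median ratio of 1, G34W replicate 1 was -0.73 and G34W replicate 2 -0.31 from the WT mean on the log2 scale. The direction was thus the same in both G34W libraries, at unequal size.

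The other subunits of the HIRA complex overlapped between G34W and WT in the values as deposited. HIRA, the subunit that gives the complex its name, had 1987 and 2471 in G34W, 1987 and 2139 in WT and 2786 in EV replicate 2. The EV library was the highest, at 1.35 times the WT mean, but with 1 library the log2 difference of WT from EV (-0.43, 95% interval -1.13 to 0.26) did not pass the threshold. UBN1, a ubinuclein that binds H3.3, had 3485 and 4979.99 in G34W, 4183 and 4754 in WT and 4843 in EV replicate 2. UBN2, its paralogue, had 169 and 236 in G34W, 264 and 183 in WT and 335 in EV replicate 2. For both ubinucleins, G34W replicate 1 was the lowest library, and the WT and G34W ranges overlapped. The log2 fold changes against WT were 0.10 for HIRA, -0.10 for UBN1 and -0.14 for UBN2, and without G34W replicate 1 they were 0.26, 0.16 and 0.10. Rescaled to a median ratio of 1, HIRA in G34W replicates 1 and 2 was 0.14 and 0.22 from the WT mean (log2). UBN1 was then -0.16 and 0.12, and UBN2 was -0.22 and 0.02. UBN2 made up 4.62% and 4.53% of the ubinuclein sum in G34W, 5.93% and 3.71% in WT and 6.46% in EV replicate 2, so the WT libraries lay further apart than the means of any pair of lines.

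DAXX and ATRX, the chaperone and the remodeller of the heterochromatin route, also overlapped between G34W and WT. DAXX had 2085 and 3303 in G34W (2694 ± 861, SD, n = 2), 1928 and 2536 in WT (2232 ± 429.7, SD, n = 2) and 1907 in EV replicate 2. Its highest library was G34W replicate 2, and the log2 fold change against WT was 0.25, or 0.58 without G34W replicate 1. Without G34W replicate 2 it was -0.08, so in the values as deposited its direction rested on that library. Rescaled to a median ratio of 1, DAXX in G34W replicates 1 and 2 was 0.11 and 0.53 from the WT mean (log2). ATRX had 762 and 1066 in G34W (914 ± 214, SD, n = 2), 949 and 1106 in WT (1027 ± 111, SD, n = 2) and 1024 in EV replicate 2. Its log2 fold change of -0.18 (95% interval -0.86 to 0.49) was 0.06 without G34W replicate 1.

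ASF1A and ASF1B, the paralogous chaperones that hand H3 and H4 to other chaperones, were both extreme in G34W replicate 1, in opposite directions. ASF1A had 1216 and 1004 in G34W, 856 and 945 in WT and 963 in EV replicate 2. Both G34W libraries were above the other 3, although G34W replicate 2 exceeded EV replicate 2 by less than the spread between the WT libraries. The log2 fold change against WT was 0.30 (95% interval -0.34 to 0.93), and 0.16 without G34W replicate 1. ASF1B, the paralogue more tied to proliferation, had 2346 and 3109 in G34W, 3058 and 2948 in WT and 2794 in EV replicate 2. G34W replicate 1 was the lowest and G34W replicate 2 the highest library, so the groups overlapped, and the log2 fold change was -0.15, or 0.05 without G34W replicate 1. ASF1A made up 34.1% of the pair in G34W replicate 1 and 24.4% in G34W replicate 2, against 21.9% and 24.3% in WT and 25.6% in EV replicate 2. The windows of this pair are shown as a second case of paralogues whose values moved differently (chr6:118893902-118894201, plus strand, and chr19:14136540-14136839, minus strand), with capitals as before.
ASF1A: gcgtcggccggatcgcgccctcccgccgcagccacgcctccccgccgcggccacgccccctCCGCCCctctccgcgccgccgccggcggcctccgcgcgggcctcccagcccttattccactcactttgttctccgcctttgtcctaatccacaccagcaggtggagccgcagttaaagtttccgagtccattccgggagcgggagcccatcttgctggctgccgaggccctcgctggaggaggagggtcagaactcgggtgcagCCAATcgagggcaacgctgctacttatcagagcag
ASF1B: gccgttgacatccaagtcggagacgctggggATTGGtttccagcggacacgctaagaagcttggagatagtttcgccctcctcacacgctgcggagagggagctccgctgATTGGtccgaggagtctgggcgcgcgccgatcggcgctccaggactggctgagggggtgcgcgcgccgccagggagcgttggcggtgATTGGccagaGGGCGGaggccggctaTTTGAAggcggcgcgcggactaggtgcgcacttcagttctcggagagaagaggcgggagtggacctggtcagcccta
The ASF1A window held 1 match each to CCAAT, after the start, and GGGCGG. The ASF1B window held 3 matches to CCAAT on its opposite strand, 1 to GGGCGG and 1 to TTTGAA, which begins 27 bases before the start. TTTGAA is the core of an element known from promoters of cell cycle genes, here a match of letters only.

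**Figure D2:**
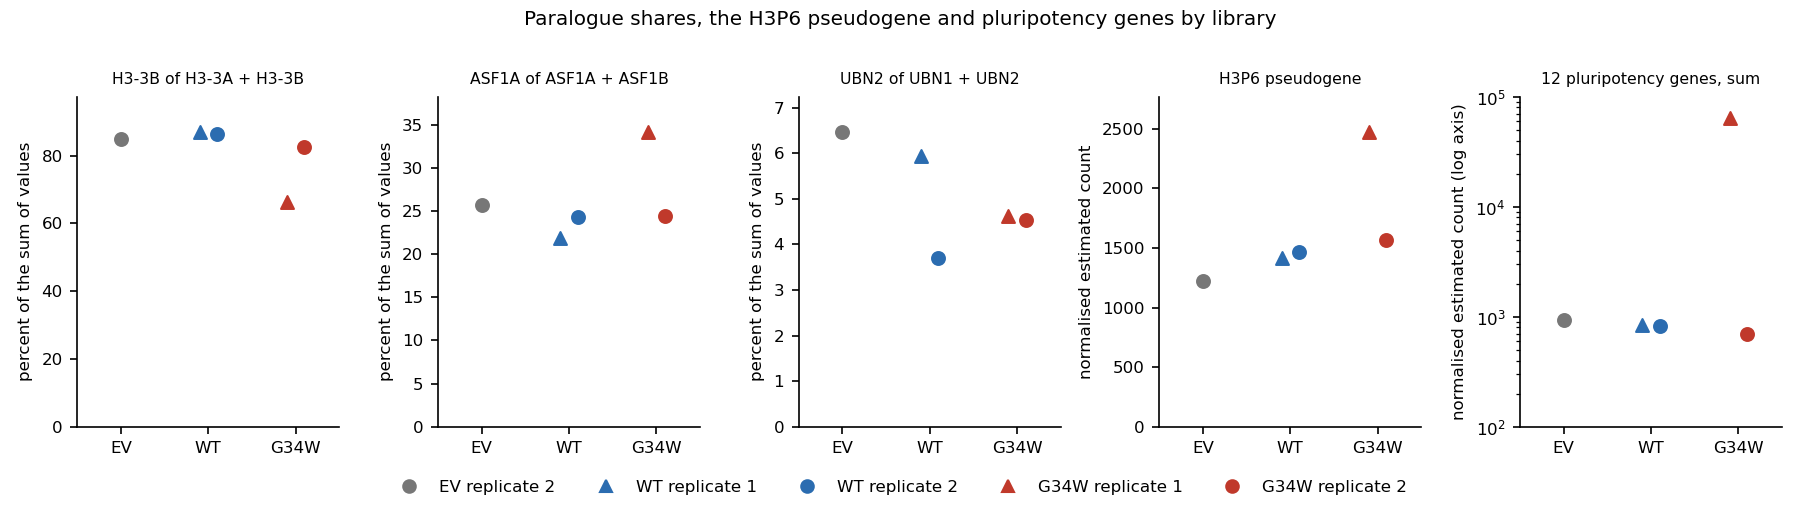
Values by library for EV replicate 2, WT and G34W (triangles replicate 1, circles replicate 2): percent of each paralogue pair's sum, the H3P6 pseudogene as normalised estimated count, and the summed count of 12 pluripotency genes on a log axis. G34W replicate 1 has the lowest H3-3B share (66.4%), the highest ASF1A share (34.1%) and the highest pluripotency sum (64765).

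In the values as deposited, 2 of the 10 genes (H3-3A and ASF1A) had both G34W libraries above both WT libraries, against 11.5% of all genes tested. In the same values 1 (CABIN1) had both below, against 14.9%. These counts were not repeated after rescaling. The same 2 genes were also above EV replicate 2, against 7.70% of genes tested, and CABIN1 below it, against 9.66%. Among 10 genes, counts of 1 and 2 are near these shares. Between G34W and WT, 0 of the 10 genes had an adjusted p under 0.05 in limma, against 0% of the 16436 genes tested. At an unadjusted p under 0.05 there was 1 higher gene, H3-3A, against 1.70% of genes tested (280 genes), and 0 lower, against 1.13% (186 genes). Without G34W replicate 2, 117 genes were called over the whole table, 107 of them higher, and none of the 10. Leaving out WT replicate 1 gave 11 genes and WT replicate 2 gave 1, again with none of the 10. The median log2 fold change of the 10 genes was -0.11, against -0.06 over all genes tested, and without G34W replicate 1 it was 0.13 against 0.05. Of the 10, 4 had a positive and 6 a negative log2 fold change, and H3-3A, CABIN1 and ASF1A kept their sign with any 1 of the 4 WT and G34W libraries left out.

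Against the empty vector, G34W gave 0 of the 10 genes at an adjusted p under 0.05 in limma, against 0% of genes tested. At an unadjusted p under 0.05 it also gave 0, against 1.17% of genes tested that were higher and 0.797% that were lower. H3-3A came nearest, with a log2 fold change of 0.90 (95% interval -0.02 to 1.81), and CABIN1 next with -0.73 (95% interval -1.52 to 0.05). Without G34W replicate 1 these were 0.39 and -0.41, and DAXX was 0.79, against 0.46 with all 5 libraries. Leaving out either G34W library sets 1 G34W library against 1 EV library. The spread is then taken from the WT libraries and from other genes, so such fits hold no replicates of either line compared. Over all genes, leaving out G34W replicate 2 gave 58 called genes in place of 0, and none of the 10 was among them.

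The wild-type histone was compared with the empty vector to see whether added H3.3 alone goes with other values. H3-3A differed by -0.09 on the log2 scale (95% interval -1.001 to 0.83) and H3-3B by 0.12 (95% interval -0.60 to 0.84), so EV replicate 2 lay close to WT for both H3.3 genes. The widest differences were for UBN2 (-0.60) and HIRA (-0.43), both higher in EV replicate 2. None of the 10 genes passed an adjusted p under 0.05 in limma, against 0% of genes tested, and none had an unadjusted p under 0.05, against 0.675% higher and 0.389% lower. Over all genes, leaving out WT replicate 1 gave 11 called genes in place of 0, with none of the 10. The comparisons share the WT, G34W and EV libraries and are not independent. The intervals reach about 1 log2 unit on either side for several genes.

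**Figure D3:**
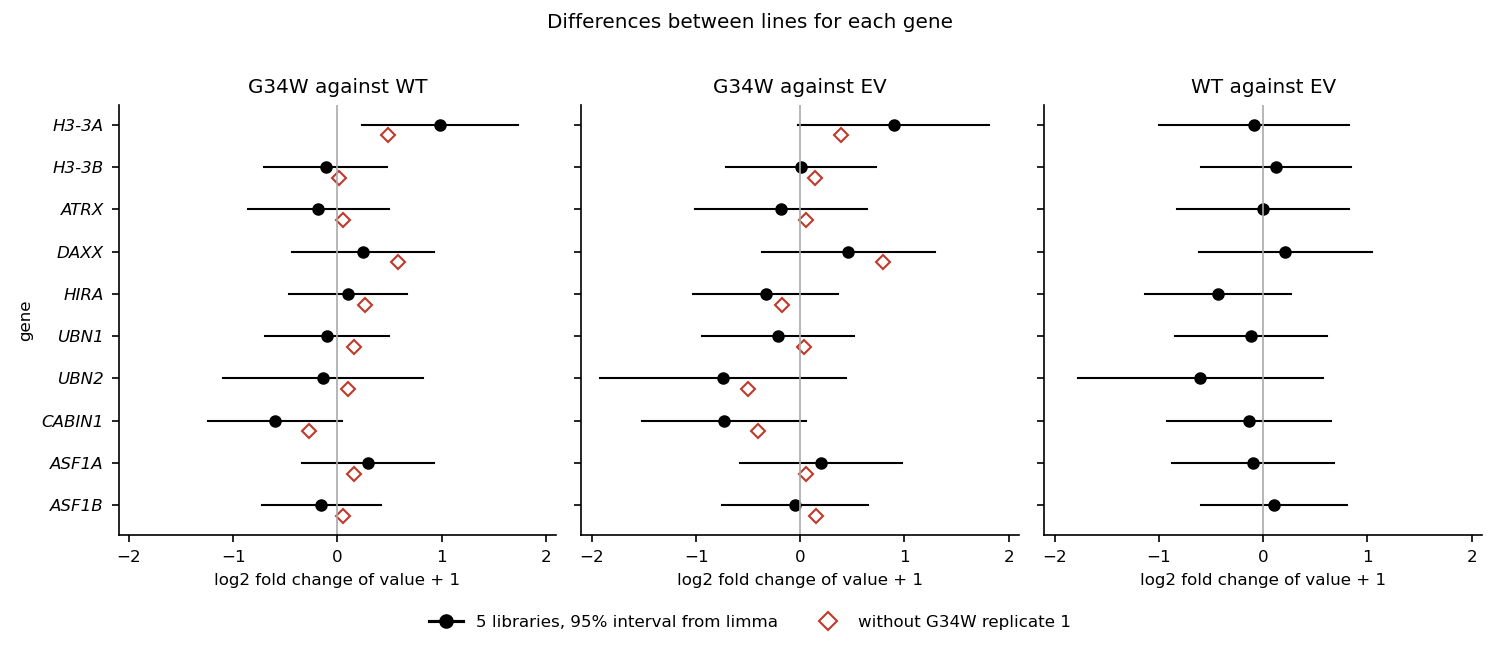
Log2 fold change of value + 1 for the 10 genes in each comparison, with the 95% interval from limma (black) and the value without G34W replicate 1 (open diamonds). For H3-3A, G34W against WT is 0.98 with all 5 libraries and 0.48 without G34W replicate 1, and for CABIN1 it is -0.60 and -0.27.

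Partners of ATRX and DAXX, including proteins of PML bodies and of heterochromatin, gave 0 of 10 calls between G34W and WT, against 0% of genes tested. At an unadjusted p under 0.05 there were 0 genes, against 1.70% higher and 1.13% lower. Their median log2 fold change was 0.01, with 6 above and 4 below 0, and without G34W replicate 1 the median was -0.02 with 5 below 0. After rescaling it was 0.09 with 4 below 0. PML, which organises these bodies, had 2483 and 4648 in G34W and 3060 and 5397 in WT. SP100, another body component, had 6087 and 8213 in G34W and 8051 and 8063 in WT. The values of PML differed more between replicates than between lines. TRIM28, a corepressor, had 28537 and 21686 in G34W and 20988 and 27806 in WT, and the deubiquitinase USP7 had 3046 and 3761 in G34W and 3674 and 4410 in WT, both overlapping. Their log2 fold changes were -0.26 for PML, -0.19 for SP100, 0.04 for TRIM28 and -0.25 for USP7. Without G34W replicate 1 they were 0.19, 0.03, -0.16 and -0.10, so 3 of the 4 reversed.

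The other chaperones and carriers of H3 and H4 gave 0 calls among 19 genes, against 0% of genes tested, and 0 at an unadjusted p under 0.05, against 1.70% higher and 1.13% lower. In all 5 libraries 14 of the 19 had a negative log2 fold change against WT, with a median of -0.15. After rescaling there were 12 with a median of -0.07, and without G34W replicate 1 there were 8 with a median of 0.01. NAP1L1, a nucleosome assembly protein, had 18608 in G34W replicate 1, 10674 in G34W replicate 2, 9825 and 11272 in WT and 9344 in EV replicate 2. CDAN1, which binds ASF1 proteins, had 830 and 1690 in G34W and 1403 and 2184 in WT. SPTY2D1, an H3-H4 chaperone, had 1561 and 2300.5 in G34W and 2308 and 2576 in WT. MCM2, a helicase subunit that binds H3 and H4, and SSRP1, a subunit of FACT, had log2 fold changes of -0.13 and -0.15, and of 0.07 and -0.08 without G34W replicate 1. For NAP1L1 and CDAN1 the extreme value was that of G34W replicate 1, and their log2 fold changes were 0.42 and -0.56 with it and 0.02 and -0.05 without it. SPTY2D1 was -0.36 and -0.08.

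Canonical H3 genes, whose transcripts mostly end without a poly(A) tail, were measured in libraries made by poly(A) selection, so their values hold only the selected transcripts. Of 15 gene symbols 13 were matched, and 0 were called, against 0% of genes tested, or had an unadjusted p under 0.05, against 1.70% higher and 1.13% lower. All 13 had a negative log2 fold change between G34W and WT (median -0.21), 12 after rescaling to a median ratio of 1 (median -0.13), and 3 without G34W replicate 1 (median 0.12), so their direction rested on that library. Their sum was 113056 and 174981 in G34W, 153523 and 175112 in WT and 140981 in EV replicate 2, lowest in the library in which H3-3A was highest. H3C8 had 19064 and 29019 in G34W and 23029 and 25071 in WT, and H3C2 had 14009.5 and 20348 in G34W and 19213 and 25267 in WT. H3C4 had 2894 and 3820.02 in G34W, below both WT libraries at 3883 and 4788. The log2 fold changes were -0.03 for H3C8, -0.38 for H3C2, -0.37 for H3C4 and -0.29 for H3C14, and without G34W replicate 1 they were 0.27, -0.11, -0.17 and 0.06. The identical values of H3C14 and H3C15 in each library (10958 in G34W replicate 1) are of genes with near-identical copies, and values within this family are uncertain.

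CENP-A, the centromeric H3 variant, was tested as the only other variant that passed the filter, with 976 and 1173 in G34W, 1156 and 1084 in WT and 1089 in EV replicate 2. HJURP, the CENP-A chaperone, had 3152 and 3902 in G34W and 4079 and 4124 in WT. OIP5, which also takes part in CENP-A loading, had 776 and 699.6 in G34W and 583 and 622 in WT. HJURP and OIP5 thus had no overlap between G34W and WT, in opposite directions, and neither passed the threshold. The log2 fold changes were -0.07 for CENP-A, -0.23 for HJURP and 0.29 for OIP5, and without G34W replicate 1 they were 0.07, -0.07 and 0.22.

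Genes of S phase and division were followed because canonical H3 and ASF1B are tied to the cell cycle. Of 16 genes, 0 were called, and 1 (MCM6, a subunit of the replicative helicase) was higher in G34W at an unadjusted p under 0.05, with 0 lower, against 0% of genes tested called and 1.70% higher and 1.13% lower at that p. MCM6 had 5223 and 4606 in G34W, 3417 and 3274 in WT, and 3454 in the EV library, a log2 fold change of 0.55 (standard error 0.23, unadjusted p of 0.0429 and adjusted p of 0.9997 from limma). It was 0.46 without G34W replicate 1. MKI67, a proliferation marker, had 2136 and 2247 in G34W, 2516 and 3889 in WT and 2665 in EV replicate 2, with a log2 fold change of -0.51, and -0.48 without G34W replicate 1. CDC45, a partner of the helicase, had 3964 and 4728 in G34W and 5465 and 5457 in WT. MCM6 alone had both G34W libraries above both WT libraries (1 of 16, against 11.5% of all genes tested), and MCM7, MKI67, CCNB1, CDC6 and CDC45 had both below (5 of 16, against 14.9%). MCM7, TOP2A and CDC45 had log2 fold changes of -0.18, -0.23 and -0.33, and of -0.07, -0.16 and -0.21 without G34W replicate 1. Of the 16 genes 12 were negative (median -0.11), against 9 after rescaling (median -0.03) and 7 without G34W replicate 1 (median 0.06).

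**Figure D4:**
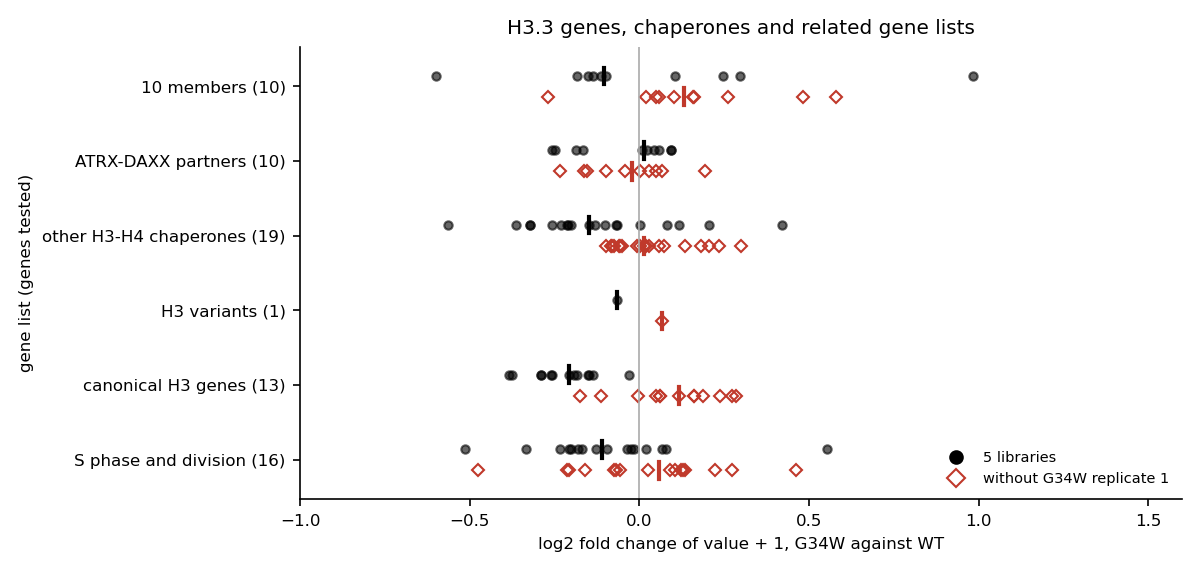
Log2 fold change of value + 1 between G34W and WT for each tested gene of the 10 members and of 5 related lists, with all 5 libraries (filled circles) and without G34W replicate 1 (open diamonds). Upright bars are medians; the canonical H3 genes have a median of -0.21 with all libraries and 0.12 without G34W replicate 1.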

How the data were processed

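Poly(A) RNA of hFOB 1.19 cells was sequenced, per the labels with a directional kit, although the methods also describe a TruSeq preparation. The authors estimated counts with kallisto on Ensembl GRCh38 (v99) transcript models, summed them to genes with tximport and applied DESeq2 normalisation (software versions not given in the sources used here). The deposited signal is this normalised estimated count. It is not whole, reads were not recovered, and no test on counts was run. Values were transformed as log2(value + 1), so changes of low genes are understated. Genes with at least 10 in at least 2 of 5 libraries entered a limma fit with a mean-variance trend (limma 3.58.1, R 4.3.3), without covariates, with Benjamini-Hochberg adjustment over all genes tested. Intervals and standard errors are the moderated ones. EV replicate 1 was left out, as the rule for the genes set. The members and lists were chosen with earlier results of these data known. From each list the 3 genes with the smallest p between G34W and WT and the 2 with the highest mean are named, besides members, pseudogenes and the genes most like H3-3A, H3-3B and ASF1B. Lists were partners of ATRX and DAXX, other chaperones, other H3 genes and S phase genes. Cell type markers were outside this rule. Of a list for CENP-A loading only single genes are given. Other genes were named after their values were seen. Alternatives were a replicate block, other sets of libraries, a pseudocount of 0.1, no filter, no trend, rescaling to a median ratio of 1 and leaving out libraries; leaving out G34W replicate 1 with rescaling was chosen after the data were seen. Coordinates and promoter windows are from RefSeq on GRCh38.p14. Figures were drawn with matplotlib 3.10.9.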

Additional observations from a re-analysis of the deposited data

Results flagged for a closer look

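H3-3B in EV replicate 1, a library used in no comparison, was 111700, above its values in all other libraries (22029.8 to 26980.3), while H3-3A was listed at 0 there. That library lists 28688 genes at 0 and sums to 157595150, against 38821143 to 48024590 in the other 5 libraries.

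The 12 pluripotency genes, which enter none of the comparisons of the H3.3 genes and chaperones, summed to 64765 in G34W replicate 1 and to 933 in EV replicate 2. H3-3A was also highest in that library, at 11161. The part of these transcripts in the value of H3-3A was not tested.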

How the results depend on the processing

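None of the 10 genes was called in any comparison under any alternative. Count-based tests were not run, because whole reads could not be recovered. With 12 alternatives for G34W against WT, H3-3A (0.44 to 1.48), CABIN1 (-0.93 to -0.27) and ASF1A (0.12 to 0.43) kept their sign, and 108 of 120 log2 fold changes did. For G34W against EV 95 of 110 did and for WT against EV 98 of 110. The adjusted p of H3-3A between G34W and WT ranged from 0.0661 to 0.99999 in limma. The H3-3B share differed by -20.4 to -4.13 points with a replicate left out and by -12.5 with pseudogenes added. The labels do not say what libraries with the same replicate number share. The deviations of same-numbered G34W and WT libraries had a correlation of 0.067 over 16436 genes, which cannot show whether a batch was shared. With the replicate block the counts of called genes were 0, with 740, 321 and 422 at an unadjusted p under 0.05 against 466, 324 and 175 without it. The block reversed ASF1B against EV for G34W (0.039) and, for WT against EV, ATRX (0.18), UBN1 (0.056) and CABIN1 (0.058). The unadjusted p from limma of H3-3A for G34W against WT was 0.015 in the main fit and 0.0057 with the block. It was 0.081 without a variance trend, 0.084 without a filter, 0.81 with all 6 libraries and 0.13 without G34W replicate 1, or 0.11 with rescaling as well, and under 0.05 in the other alternatives. CABIN1 (0.064 in the main fit) ranged from 0.012 to 0.88 and was under 0.05 in 3 of the 12 alternatives. For G34W against EV, with 11 alternatives, H3-3A (0.054) ranged from 0.0023 to 0.28 with 2 under 0.05, CABIN1 (0.064) from 0.012 to 0.26 with 2, and DAXX (0.24) from 0.028 to 0.73 with 1.

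With each WT or G34W library left out, called genes ranged from 0 to 117 for G34W against WT, from 1 to 58 for G34W against EV and from 1 to 11 for WT against EV. Where an arm then had 1 library, it was assumed to vary like the others. Log2 fold changes that reversed ranged, for G34W against WT, from -0.25 to 0.020 for H3-3B, -0.43 to 0.057 for ATRX, -0.085 to 0.58 for DAXX, -0.053 to 0.26 for HIRA, -0.36 to 0.16 for UBN1, -0.40 to 0.12 for UBN2 and -0.36 to 0.050 for ASF1B. For G34W against EV they ranged from -0.12 to 0.14 for H3-3B, -0.43 to 0.057 for ATRX, -0.47 to 0.040 for UBN1 and -0.25 to 0.15 for ASF1B, and for WT against EV from -0.11 to 0.11 for ATRX. Without G34W replicate 1 and rescaled, called genes were 0, 1 and 1, and ATRX (0.015), UBN1 (0.12), UBN2 (0.061) and ASF1B (0.0078) reversed for G34W against WT, as did ASF1A (-0.0097) and ASF1B (0.085) for G34W against EV. Rescaling alone reversed ASF1B for G34W against EV (0.0041). A pseudocount of 0.1 gave 1 gene in each comparison with EV, PPP1R11, listed at 0 in EV replicate 2.

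With all 6 libraries, in which EV replicate 1 lists most genes at 0, G34W against EV reversed for H3-3B (-1.10), ATRX (1.43), HIRA (5.39), UBN1 (5.90), UBN2 (1.08), CABIN1 (5.05) and ASF1B (5.68). WT against EV reversed for H3-3A (5.94), H3-3B (-0.99), ATRX (1.61), HIRA (5.29), UBN1 (6.002), UBN2 (1.21), CABIN1 (5.65) and ASF1A (4.86). The cause of the other reversals was not tested.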
